A study of Mus musculus with 7 samples.

Results

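The genes of MHC class I and its peptide loading pathway were followed in 4T1 mammary tumours injected with extracellular vesicles. They were the 10 rows of the gene table whose identifiers map to H2-K1, H2-D1, H2-T23, H2-M3, B2m, Tap1, Tap2, Tapbp, Nlrc5 and Erap1, and all 10 were found among 55487 gene rows. The 4T1 line is a mouse mammary carcinoma of BALB/c origin, and the tumours grew from luciferase-carrying cells in the mammary fat pad of wild-type BALB/c mice. At about 150 mm3 they received 6 intratumoural injections of 50 µl, and whole tumours were taken at the time labelled day 12. The TIS sEV group (3 libraries) received small vesicles of therapy-induced senescent 4T1 cells, which had been treated with 100 ng/ml nocodazole for 72 h and then released for 72 h in medium with 5% vesicle-free serum. The Cont sEV group (1 library) received vesicles of 4T1 cells handled alike with DMSO, and the saline group (3 libraries) received saline. All groups therefore carried the same tumour line, and donor and recipient tumour cells were of the same line. No source used here states the age or sex of the mice, or whether a library came from 1 animal. The vesicle columns carry abbreviations, read here as Cont and TIS (nocodazole) vesicles. No label writes them out, and all values given below for vesicle groups depend on this reading.

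MHC class I molecules display peptides of intracellular proteins to CD8 T cells. A heavy chain pairs with the invariant light chain β2-microglobulin in the endoplasmic reticulum, where the TAP transporter imports peptides, tapasin holds empty class I beside it and aminopeptidases trim the peptides to fit. The genes share upstream control by interferon regulatory factors, NF-κB and NLRC5, and tumours with low class I are known for escaping CD8 T cells.

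The deposited unit was TPM (transcript abundance per length, scaled to the same total in every library), so levels can be set side by side between genes. Sequencing depth cannot be read from TPM, and counting error is therefore not given. TIS sEV replicate 2 stood apart from the other 6 libraries before any gene was considered. Ribosomal RNA genes of the nucleus made up 22.9% of its TPM and 0.807% to 2.40% elsewhere. Protein-coding genes of the nucleus made up 28.6% and 56.8% to 74.7% elsewhere, and 8909 genes reached 1 TPM where the others had 11378 to 12328. Differences of the 10 genes and list medians between TIS sEV and saline are therefore also given without it. The tumour label was checked on epithelial keratins: Krt8 was at 218 to 1157 TPM in TIS sEV, 1107 in Cont sEV and 598 to 1716 TPM in saline tumours.

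The class I genes lie mostly in the MHC on chromosome 17 (7 of 10 genes, GRCm38 coordinates of the GENCODE M21 annotation). From the centromeric side these are Tapbp at 33915899 to 33929292, H2-K1 at 33996017 to 34000347, Tap1 at 34187553 to 34197225, Tap2 at 34203527 to 34216321, H2-D1 at 35262730 to 35267499, H2-T23 at 36029773 to 36032855 and H2-M3 at 37270220 to 37274484. B2m lies on chromosome 2 at 122147686 to 122153083, Nlrc5 on chromosome 8 at 94434356 to 94527272 and Erap1 on chromosome 13 at 74639568 to 74693201. All are protein-coding.

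Promoter windows of RefSeq (GRCm38.p6, the 250 bases before each annotated start) were available for 8 of the 10 genes, all but Tap2 and Nlrc5. They are shown because the classical class I promoters carry the binding sites that define the shared control. A link between these sites and the levels in the 7 libraries was not tested. Capitals mark the NF-κB site core GATTCCCC, the core of the interferon-stimulated response element AANNGAAA, the core of the cyclic AMP response element TGACG and the CCAAT box, each searched on both strands, and no capitals overlap in the stretches printed. The motif letters were chosen with these promoters in view. The stretches are the C57BL/6J reference, whereas BALB/c and 4T1 carry another MHC haplotype.
H2-K1, chr17:34000349-34000465, minus strand: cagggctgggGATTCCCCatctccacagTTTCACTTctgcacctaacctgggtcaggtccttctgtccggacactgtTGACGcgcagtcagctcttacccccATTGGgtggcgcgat
H2-M3, chr17:37270095-37270219, plus strand: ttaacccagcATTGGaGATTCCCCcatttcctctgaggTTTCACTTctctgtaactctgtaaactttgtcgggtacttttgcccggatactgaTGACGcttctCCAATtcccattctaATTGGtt
B2m, chr2:122147540-122147648, plus strand: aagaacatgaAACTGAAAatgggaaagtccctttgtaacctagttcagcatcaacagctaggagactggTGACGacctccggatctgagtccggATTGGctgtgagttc
For H2-D1, the 26 bases from the first to the second motif are shown (chr17:35262926-35262951, plus strand), since they match H2-K1 in spacing.
H2-D1: GATTCCCCatctcctcagTTTCACTT

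In H2-K1 and H2-D1 10 bases separated the NF-κB core from the interferon core, and in H2-M3 14 bases did. Among the 8 genes with a window, 3 held the NF-κB core, 5 the interferon core, 5 the cyclic AMP core and 7 the CCAAT box. For H2-D1, Tap1, Tapbp and Erap1 all 250 bases of the window lay within annotated exons of GENCODE M21, and for H2-T23 154 did. The H2-D1 stretch printed is thus not outside the annotated gene. Of all 32851 RefSeq promoter windows of the same length, 0.752% held the NF-κB core, 21.3% the interferon core, 17.8% the cyclic AMP core and 33.8% the CCAAT box. The last 3 of these motifs occurred together in 4 of the 8 genes and in 1.08% of all windows. A gene was counted if any of its windows held the motifs. As the letters were chosen with these promoters in view, the comparison is not a test. These matches are descriptions of letters.

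The 2 classical heavy chains and B2m were the most abundant of the 10 genes in every library. H2-K1, the heavy chain of the classical molecule K, was at 3847, 263 and 3538 TPM in TIS sEV replicates 1, 2 and 3, at 3803 TPM in the Cont sEV tumour and at 2466, 2875 and 4468 TPM in the saline replicates. H2-D1, the heavy chain of the classical molecule D, was at 1835, 168 and 1570 TPM with TIS sEV, 1783 TPM with Cont sEV and 1065, 1639 and 2074 TPM with saline. For both genes TIS sEV replicate 2 lay far below all others, and the remaining vesicle tumours lay inside the saline range.

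The non-classical heavy chains had the same order of libraries within TIS sEV. H2-T23, which encodes Qa-1, a ligand of the CD94/NKG2 receptors of NK cells, was at 494, 32.8 and 334 TPM with TIS sEV, 439 TPM with Cont sEV and 245, 354 and 481 TPM with saline. H2-M3, which presents N-formylated peptides, was at 47.2, 4.24 and 26.3 TPM with TIS sEV, 42.4 TPM with Cont sEV and 21.3, 22.1 and 34.1 TPM with saline. Replicate 1 of TIS sEV exceeded every saline tumour for both, and Cont sEV exceeded every saline tumour for H2-M3. B2m, the light chain shared by all of them, was at 3435, 455 and 2230 TPM with TIS sEV, 2356 TPM with Cont sEV and 2327, 3389 and 4518 TPM with saline, so TIS sEV replicates 2 and 3 both lay below the saline range.

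Transport and loading genes ran at lower levels. Tap1, a subunit of the peptide transporter, was at 73.7, 4.20 and 47.1 TPM with TIS sEV, 82.1 TPM with Cont sEV and 39.6, 54.8 and 95.3 TPM with saline. Its partner Tap2 was at 69.7, 3.73 and 71.2 TPM with TIS sEV, 88.9 TPM with Cont sEV and 42.0, 49.0 and 117 TPM with saline. Tapbp, which encodes tapasin, the bridge between TAP and empty class I, was at 191, 13.6 and 167 TPM with TIS sEV, 152 TPM with Cont sEV and 108, 127 and 219 TPM with saline. For all of these the groups overlapped, with TIS sEV replicate 2 at the bottom and saline replicate 3 at the top.

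Erap1, the aminopeptidase that trims peptides in the endoplasmic reticulum, was the lowest of the genes, at 11.7, 0.664 and 7.01 TPM with TIS sEV, 6.59 TPM with Cont sEV and 7.35, 9.67 and 14.8 TPM with saline. Nlrc5, the transactivator of class I genes, was at 34.9, 3.86 and 22.6 TPM with TIS sEV, 17.2 TPM with Cont sEV and 23.1, 31.4 and 34.0 TPM with saline. The Cont sEV tumour lay below every saline tumour for these genes and for no other of the 10. Together the 10 genes took 1.00%, 0.0948% and 0.801% of all TPM in the TIS sEV libraries, 0.877% in Cont sEV and 0.634%, 0.855% and 1.21% in saline. As a share of nuclear protein-coding TPM they took 1.55%, 0.332% and 1.26% with TIS sEV, 1.19% with Cont sEV and 1.12%, 1.16% and 1.61% with saline.

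**Figure D1:**
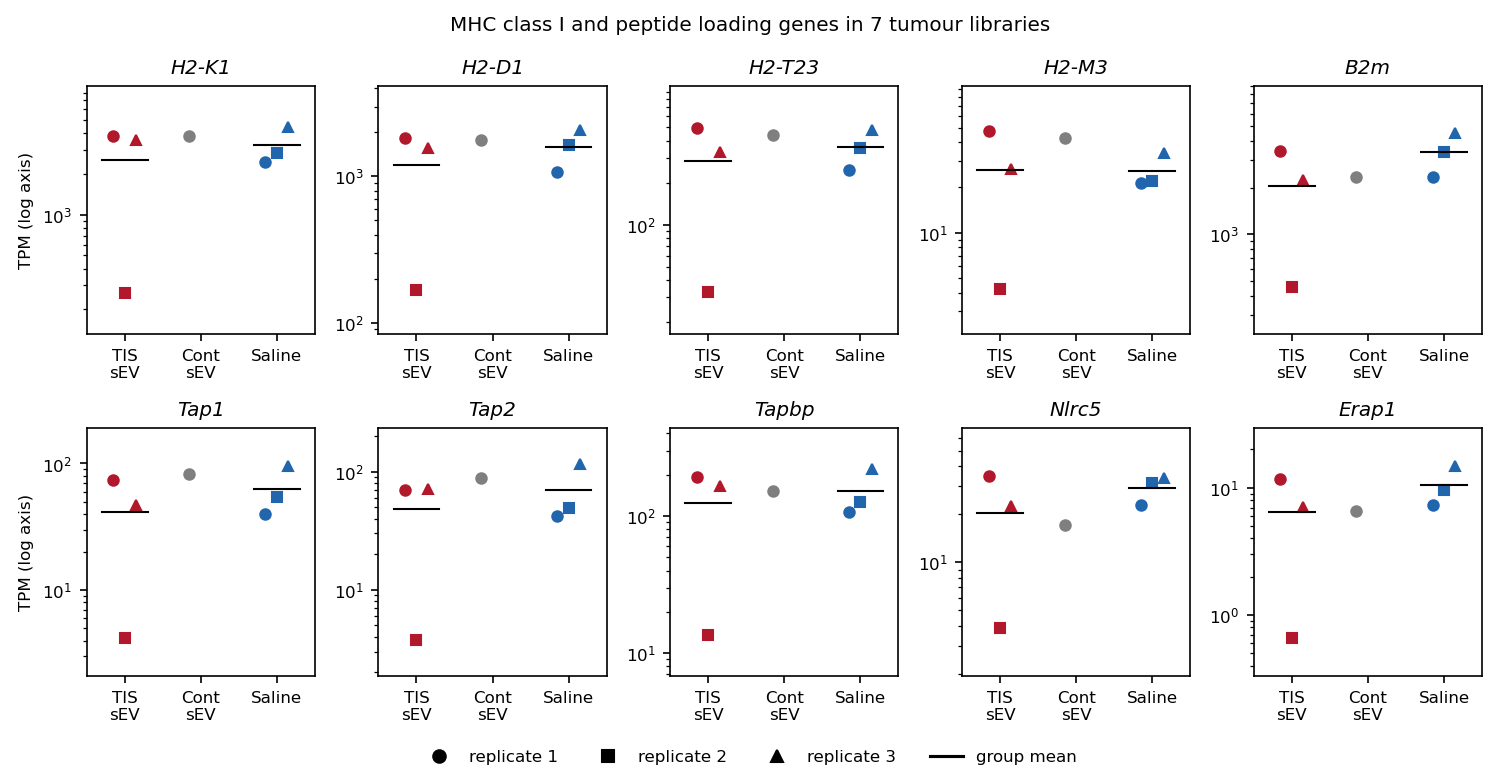
TPM (log axis) of the 10 genes in each tumour library, by group, with a line at the mean of the 3-library groups and marker shapes for replicate numbers. TIS sEV replicate 2 is the lowest point in all 10 panels, from 0.664 TPM for Erap1 to 455 TPM for B2m, and the other points of the groups overlap.

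Between TIS sEV and saline tumours, none of the 10 class I genes passed the test. The test was limma on log2(TPM + 1) across 12058 genes, two-sided, with Benjamini-Hochberg adjustment over all of them and a threshold of 0.05. It called 0 of 10, against 62 genes or 0.514% of all tested, and the lowest limma adjusted p among the 10 was 0.476. At an unadjusted p under 0.05 there were 2 of 10, H2-K1 and B2m, against 10.3% of all tested genes. The labels number replicates without stating that they are separate animals, so these p-values cannot be read as measuring spread between animals. The fit also took each gene's spread from genes at a similar level, so p-values and standard errors do not reflect its own replicates.

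The fitted log2 differences ran from -1.18 for Tap1 (SE 0.64) to -0.46 for H2-M3 (SE 0.65). The median over all tested genes was itself -0.62, so values are also given relative to this median gene, while each limma p tests the fitted difference against 0. On that scale 9 of 10 genes were below and 1, H2-M3, was above, with a median of -0.38 and a range of -0.56 to 0.16. H2-K1 averaged 2549 ± 1986 TPM with TIS sEV and 3270 ± 1058 TPM with saline (SD, n = 3 each), a fitted log2 difference of -1.05 (SE 0.50, limma adjusted p = 0.476). B2m averaged 2040 ± 1499 TPM with TIS sEV and 3411 ± 1096 TPM with saline (SD, n = 3 each), a difference of -1.12 (SE 0.50, limma adjusted p = 0.476). TIS sEV and saline overlapped for 10 of 10 genes, while 14.3% of all tested genes had groups that did not overlap. After division by median-of-ratios size factors, which bring the libraries' typical genes to a common level, the groups still overlapped for 10 of 10, against 24% of all tested genes without overlap.

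The sign of these differences rested on TIS sEV replicate 2. Without TIS sEV replicate 2, 9 of 10 genes were above the median gene, with a median of 0.35 and a range of -0.05 for B2m to 0.66 for H2-M3, and 6 of 10 fitted differences were above 0. The lowest limma adjusted p was then 0.805. Without TIS sEV replicate 1, which leaves replicates 2 and 3, 0 of 10 were called, with a lowest limma adjusted p of 0.0717 for H2-K1. That fit called 353 of the 12058 tested genes, against 62 with all libraries.

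**Figure D2:**
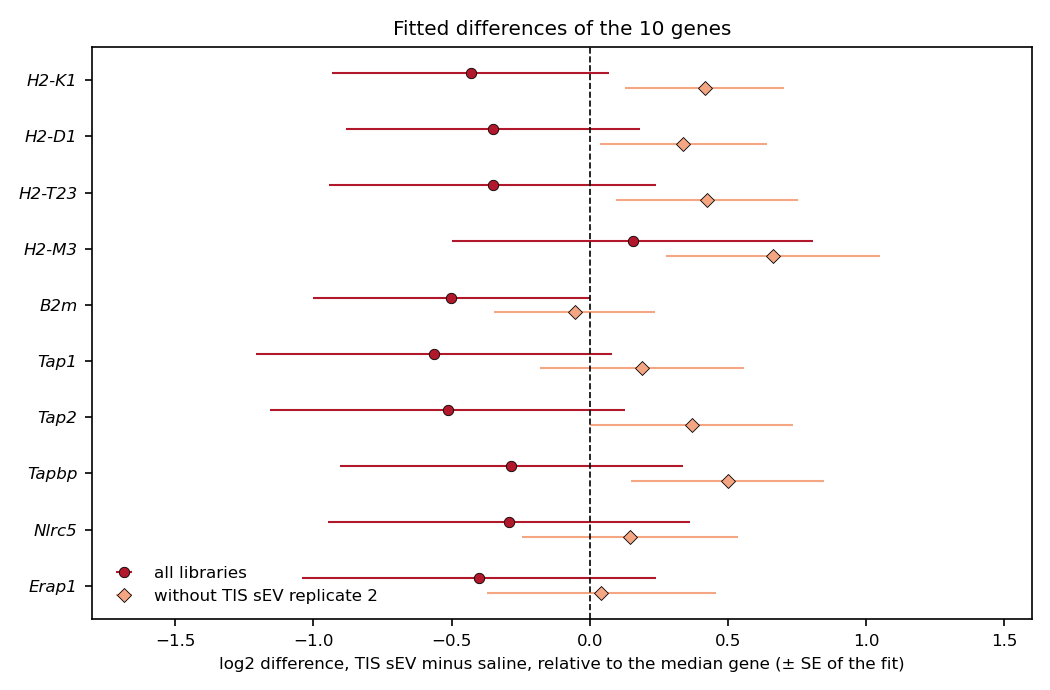
Fitted log2 difference of TIS sEV minus saline relative to the median gene, with the standard error of the fit, for all libraries (circles) and without TIS sEV replicate 2 (diamonds). With all libraries 9 of 10 genes lie left of 0, and without replicate 2 the same number lie right of it. With all libraries the standard error comes from genes at a similar level and not from the gene's own replicates. No point passed the test in either fit.

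TIS sEV replicates 1 and 3 and the saline tumours were also compared without the library that stood apart. Both TIS sEV libraries were above all saline libraries for 0 of 10 genes in TPM, against 5.67% of all tested genes. After size factors this held for 5 of 10, namely H2-K1, H2-D1, H2-T23, H2-M3 and Tapbp, against 14.8% of all tested genes. In size-factor-scaled values H2-K1 was at 3054 and 3507 with TIS sEV and at 2407, 1899 and 3021 with saline. H2-M3 was at 37.5 and 26.1 with TIS sEV and at 20.8, 14.6 and 23 with saline. None of the 5 passed the limma test in that setting, where the lowest adjusted p among the 10 genes was 0.390.

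Saline tumours had the same order in TPM for every gene. Replicate 3 was the highest saline library for 10 of 10 genes, against 47.0% of all tested genes, and replicate 1 the lowest for 10 of 10, against 82.9%. After size factors replicate 3 was still the highest for 10 of 10, against 38.7% of all tested genes. The lowest was then replicate 2 for 9 of 10, against 31.5% of all tested genes, and replicate 1 for H2-D1 only. In TPM the ratio of the highest to the lowest saline tumour ran from 1.47 for Nlrc5 to 2.79 for Tap2.

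In TIS sEV replicate 2 the class I genes were further below the other TIS sEV tumours than most genes were. That library was the lowest of all 7 for 10 of 10 genes, as it was for 88.4% of all tested genes. After size factors it remained the lowest for 10 of 10, while this held for 30.9% of all tested genes. On the log2(TPM + 1) scale the 10 genes lay below the mean of TIS sEV replicates 1 and 3 by a median difference of -3.43, against -1.23 for all tested genes. Such a gap was not particular to the 10 genes. On the same measure the 10 tested other class I heavy chains ranged from -4.04 for H2-Q4 to -0.79 for H2-Q1. The 8 tested genes of the endoplasmic reticulum loading list ranged from -3.42 for Hspa5 to -1.35 for Sec61b.

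The largest gap among the 10 was that of Tap2, at 3.73 TPM in replicate 2 against a mean of 70.5 TPM in replicates 1 and 3, a ratio of 18.9. H2-K1 and Tap1 had ratios of 14.1 and 14.4. B2m had the smallest, 6.23, with 455 TPM in replicate 2 and a mean of 2833 TPM in replicates 1 and 3. A log2 difference of -3 or lower was reached by 6 of 10 (H2-K1, H2-D1, H2-T23, Tap1, Tap2 and Tapbp), against 1.85% of all tested genes and 3.43% of the 6306 tested genes whose mean level was at least that of Erap1. Among all tested genes, 0.232% had a lower value than Tap2 on this measure and 4.22% a lower value than Nlrc5. Median differences by quartile of a gene's median annotated transcript length were -1.15 in the shortest and -1.25 in the longest quartile of all tested genes, and the 10 genes were spread over all 4 quartiles. This spread depends on the measure. The 4 genes in the shortest quartile, H2-D1, Tap2, Tapbp and Erap1, have longest annotated transcripts of 2102 to 5644 bases. An effect of transcript length was not tested.

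**Figure D3:**
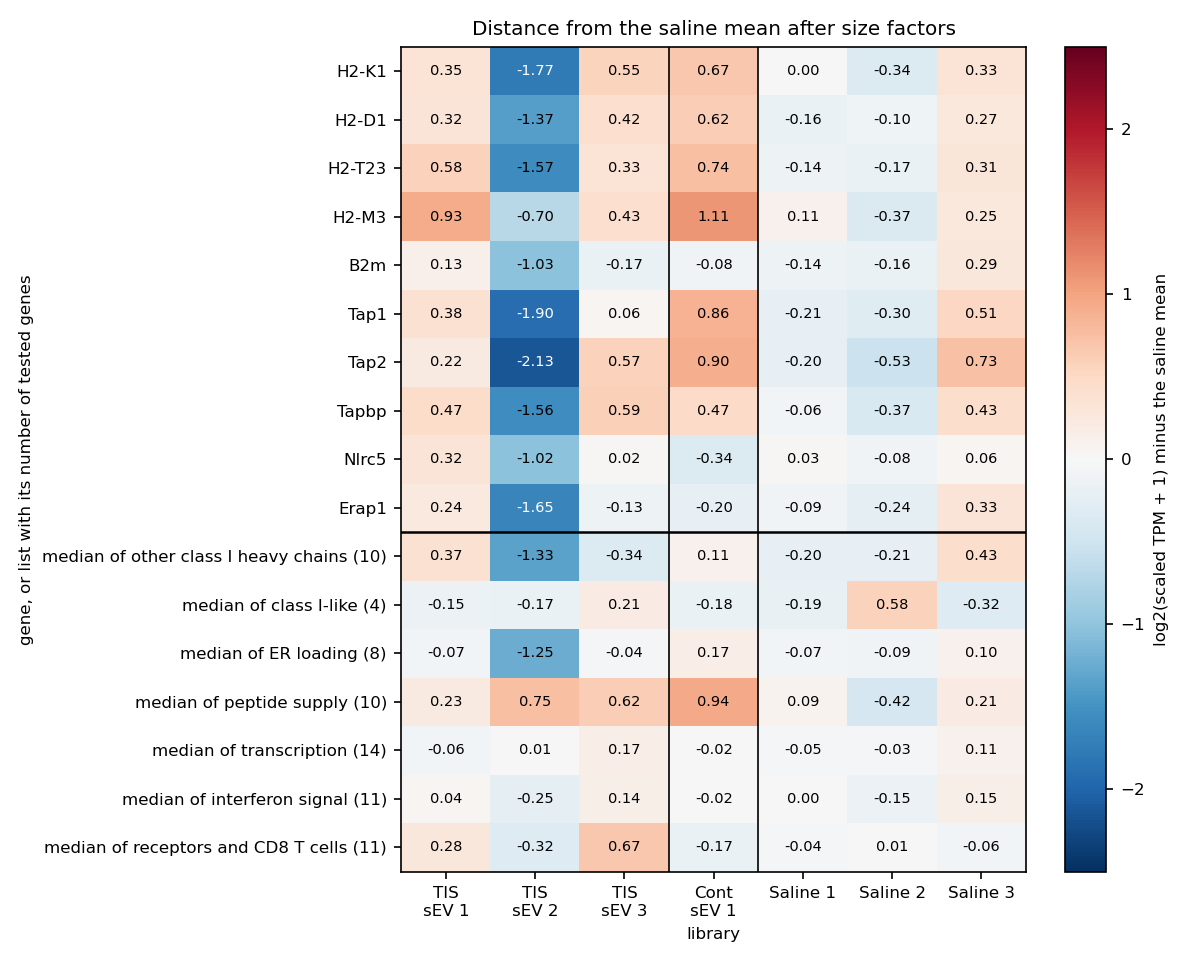
Difference of each library from the saline mean on log2(size-factor-scaled TPM + 1), for the 10 genes (top) and as medians of the other pathway lists (below), with the number of tested genes in brackets. TIS sEV replicate 2 ranges from -2.13 for Tap2 to -0.70 for H2-M3. In the same library the medians are -1.33 for other class I heavy chains and -1.25 for the ER (endoplasmic reticulum) loading list. The remaining list medians there run from -0.32 for receptors and CD8 T cells to 0.75 for peptide supply.

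Ratios of genes within a library do not depend on its scaling. The ratio to B2m, whose product pairs with each heavy chain, was therefore taken for the other 9 genes, with no test. All of these ratios share a denominator and move together with it. For H2-K1 it was 1.12, 0.578 and 1.59 with TIS sEV, 1.61 with Cont sEV and 1.06, 0.849 and 0.989 with saline. For H2-D1 it was 0.534, 0.369 and 0.704 with TIS sEV, 0.757 with Cont sEV and 0.458, 0.484 and 0.459 with saline. The H2-T23 ratio was 0.144, 0.0721 and 0.150 with TIS sEV, 0.187 with Cont sEV and a narrow 0.105, 0.104 and 0.106 with saline.

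TIS sEV and saline ratios were apart for 1 of 9 genes, H2-M3, against 12.4% of all tested genes. H2-M3 per B2m was 0.0137, 0.00934 and 0.0118 with TIS sEV, 0.0180 with Cont sEV and 0.00915, 0.00653 and 0.00754 with saline. The gap between the lowest TIS sEV and the highest saline ratio was narrow. Replicates 1 and 3 of TIS sEV were both above all saline libraries for 7 of 9 ratios, against 9.65% of all tested genes, with Tap2 and Erap1 as the exceptions. Replicate 2 of TIS sEV was the lowest of 7 libraries for 7 of 9, against 8.38% of all tested genes. Cont sEV was the highest for 6 of 9, against 6.80% of all tested genes, and these were the 4 heavy chains, Tap1 and Tap2. Nlrc5 went the other way, with its lowest ratio in Cont sEV, 0.00730, beside 0.0102, 0.00850 and 0.0101 with TIS sEV and 0.00992, 0.00928 and 0.00752 with saline.

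**Figure D4:**
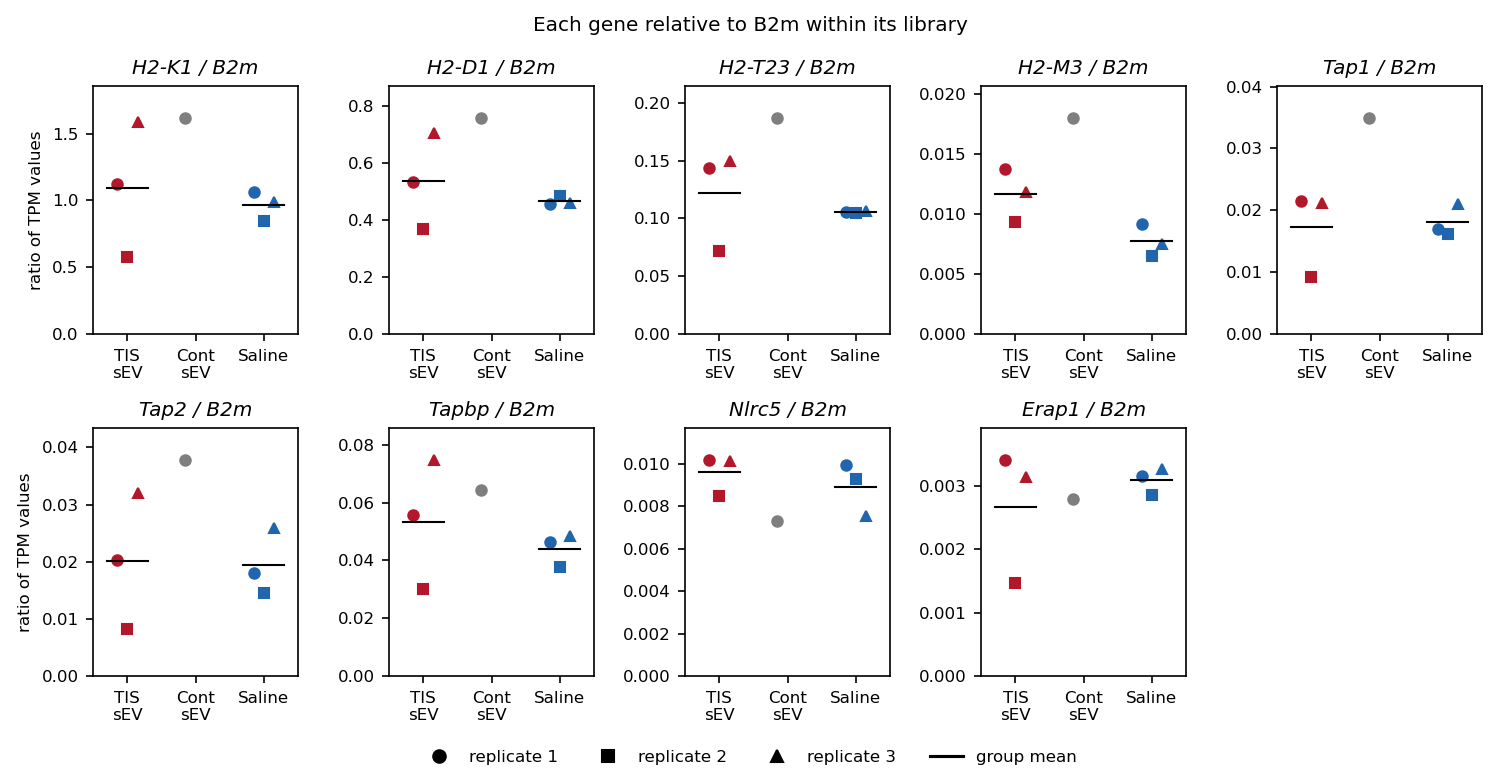
TPM of 9 genes divided by TPM of B2m in the same library, by group, with a line at the mean of the 3-library groups and axes that start at 0. Cont sEV is the highest point for the 4 heavy chains, Tap1 and Tap2, and the saline points of H2-T23 lie within 0.104 to 0.106.

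Against Cont sEV, 0 of 10 class I genes were called in TIS sEV tumours, where 0.224% of all tested genes were (27 genes). None had an unadjusted p under 0.05, against 1.73% of all tested genes. The fitted log2 differences ran from -1.65 for Tap1 (SE 0.91) to -0.18 for Nlrc5 (SE 0.92), all with a limma adjusted p of 1, and the median relative to the median gene was -0.89. Without TIS sEV replicate 2 that median was -0.20. All 3 TIS sEV tumours lay on 1 side of the Cont sEV tumour for 2 of 10, Tap1 and Tap2, both lower, against 24.6% of all tested genes.

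Between Cont sEV and saline, 0 of 10 were called, against 0.207% of all tested genes (25 genes), and 0 had an unadjusted p under 0.05, against 2.33%. Relative to the median gene 7 of 10 were above, with a median of 0.57, led by H2-M3 at 1.06 and Tap2 at 0.84, and B2m, Nlrc5 and Erap1 were below. The lowest limma adjusted p was 1.00. After size factors the Cont sEV tumour was above all saline tumours for 7 of 10, against 35.9% of all tested genes. Cont sEV had 1 library, which the fit assumed to vary like the others, so this comparison and that with TIS sEV have no replicate check. The 3 comparisons share libraries and are not independent of each other.

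Other class I heavy chains were followed in a list of 13 genes, of which 10 were tested. Between TIS sEV and saline 0 were called, 2 were above and 8 below the median gene, with a median of -0.32. Without TIS sEV replicate 2, 4 were above and 6 below, with a median of -0.06. H2-Q4, a non-classical heavy chain of the Qa region, was furthest below with all libraries, at 326, 14.3 and 192 TPM with TIS sEV, 222 TPM with Cont sEV and 221, 338 and 518 TPM with saline (fitted log2 difference -1.78, SE 0.60, limma adjusted p = 0.267). H2-Q6, from the same region, was at 79.1, 3.52 and 36.4 TPM with TIS sEV, 47.6 TPM with Cont sEV and 41.0, 74.6 and 98.3 TPM with saline. TIS sEV replicate 2 was again lowest for both, and without it their differences relative to the median gene were -0.24 for H2-Q4 and -0.12 for H2-Q6.

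The listed class I-like molecules, which pair with B2m but do not present TAP-supplied peptides, gave 0 called of 4 and a median of 0.09, or 0.06 without TIS sEV replicate 2. Fcgrt, the neonatal Fc receptor that recycles antibody, was at 43.1, 53.6 and 82.6 TPM with TIS sEV, 28.3 TPM with Cont sEV and 23.4, 64.3 and 28.1 TPM with saline. Its value in TIS sEV replicate 2 lay between those of replicates 1 and 3. Cd1d1, which presents lipids to NKT cells, was at 1.59, 0.261 and 2.21 TPM with TIS sEV, 1.92 TPM with Cont sEV and 1.41, 4.66 and 0.895 TPM with saline.

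A list of loading-complex partners, general chaperones and the import channel of the endoplasmic reticulum held Calr, Canx, Pdia3, Tapbpl, Hspa5, Hsp90b1, Sec61a1 and Sec61b. Of these 8, 0 were called, 1 was above and 7 were below the median gene, with a median of -0.56. Without TIS sEV replicate 2, 4 were above and 4 below, with a median of -0.04. Hspa5, the chaperone BiP, was at 478, 31 and 244 TPM with TIS sEV, 303 TPM with Cont sEV and 354, 570 and 457 TPM with saline (limma adjusted p = 0.404). Hsp90b1, the chaperone GRP94, was at 348, 34.9 and 302 TPM with TIS sEV, 390 TPM with Cont sEV and 340, 511 and 489 TPM with saline. Both serve many secretory proteins besides class I, and both were lowest in TIS sEV replicate 2. Without that library their differences relative to the median gene were -0.21 for Hspa5 and -0.24 for Hsp90b1.

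The peptide supply list, of proteasome genes and peptidases, had a median above that of all tested genes. Of 10, 0 were called between TIS sEV and saline, 6 were above and 4 below the median gene, with a median of 0.48. Those above were Psmb8, Psmb9, Psmb10, Psme1, Psme2 and the peptidase Blmh. Those below were the peptidases Npepps (-0.65), Lnpep (-0.53), Tpp2 (-0.15) and Thop1 (-0.13). Leaving out TIS sEV replicate 2 gave 8 above and 2 below, with a median of 0.47. Psmb10, a catalytic subunit of the immunoproteasome, was at 583, 289 and 972 TPM with TIS sEV, 1219 TPM with Cont sEV and 344, 318 and 593 TPM with saline (difference relative to the median gene 1.06, limma adjusted p = 0.631). Psmb9, another such subunit, was at 359, 100 and 392 TPM with TIS sEV, 730 TPM with Cont sEV and 183, 136 and 301 TPM with saline (0.92, limma adjusted p = 0.748).

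Psmb9 starts beside Tap1 on the opposite strand, at 34187330 and 34187556 on chromosome 17 in RefSeq, and the interval between them is known in human cells as an interferon-responsive promoter. Psmb9 per Tap1 was 4.87, 23.8 and 8.33 with TIS sEV, 8.90 with Cont sEV and 4.63, 2.49 and 3.16 with saline. The TIS sEV and saline ratios were apart, although 4.87 and 4.63 are close, and this ratio was chosen after its values were seen and has no test. In TIS sEV replicate 2, Psmb9 was -1.90 (log2) from the mean of replicates 1 and 3, beside -3.53 for Tap1 and -1.23 for the median gene. Psmb8, Psmb10, Psme1 and Psme2, which encode a further immunoproteasome subunit and the proteasome activator and were also chosen after their values were seen, had differences of -1.13 to -1.49.

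Upstream regulators gave 0 called of 14 and a median of 0.02, with 7 above and 7 below the median gene, or a median of -0.0025 without TIS sEV replicate 2. Nfkb1, a subunit of NF-κB, was at 54.6, 11.5 and 29.0 TPM with TIS sEV, 28.2 TPM with Cont sEV and 36.4, 90.7 and 87.1 TPM with saline. Rfxap, a subunit of the RFX complex that class I promoters bind, was at 27.4, 12.2 and 25.8 TPM with TIS sEV, 20.4 TPM with Cont sEV and 15.1, 32.6 and 27.8 TPM with saline. The interferon signalling list gave 0 called of 11, 3 above and 8 below the median gene, with a median of -0.12. Leaving out TIS sEV replicate 2 gave 6 above and 5 below, with a median of 0.0073. Ifng, the gene of interferon gamma, was at 2.27, 0.210 and 1.82 TPM with TIS sEV, 0.915 TPM with Cont sEV and 0.806, 0.813 and 1.58 TPM with saline. Jak1, a kinase of the interferon receptors, was at 12.8, 3.92 and 9.79 TPM with TIS sEV, 9.08 TPM with Cont sEV and 14, 22.2 and 24.7 TPM with saline, with no overlap between the groups (limma adjusted p = 0.476).

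The cells that read class I were represented by receptor and CD8 T cell genes, of which 11 of 12 were tested. Of these 0 were called, 10 were above and 1 below the median gene, with a median of 0.39. Leaving out TIS sEV replicate 2 gave 11 above and 0 below, with a median of 0.47. Cd8b1, a chain of the CD8 co-receptor, was at 4.11, 0.455 and 3.91 TPM with TIS sEV, 1.23 TPM with Cont sEV and 1.48, 2.24 and 2.62 TPM with saline. Klrd1, the CD94 chain that reads Qa-1, was at 3.56, 0.950 and 6.63 TPM with TIS sEV, 2.26 TPM with Cont sEV and 2.98, 2.81 and 2.64 TPM with saline. In TPM, TIS sEV replicates 1 and 3 were above all saline tumours for both genes and replicate 2 was below them. Replicate 2 was the lowest library in TPM for 88.4% of all tested genes. After size factors the pattern held for Cd8b1 but not for Klrd1. Scaled Klrd1 values in TIS sEV replicates 1 and 2 were 2.83 and 2.54, inside the saline range of 1.78 to 2.91.

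All nucleated cells of a tumour carry class I, so its RNA comes from carcinoma cells and from infiltrating cells, and in bulk tumours fewer cells of a type and less RNA per cell cannot be told apart. Summed markers of tumour epithelium (6 genes) were at 521 to 2410 TPM with TIS sEV, 2534 TPM with Cont sEV and 1379 to 4064 TPM with saline. General leukocyte markers (4 genes) summed to 44.6 to 153 TPM with TIS sEV, 117 TPM with Cont sEV and 90.0 to 156 TPM with saline. T cell markers (5 genes) summed to 8.96 to 57.4 TPM with TIS sEV, 18.2 TPM with Cont sEV and 15.4 to 30.5 TPM with saline. In TPM each of these sums was lowest in TIS sEV replicate 2, and after size factors each was lowest in saline replicate 1. Krt8 and Krt18 made up most of the epithelial sum. By gene, the median epithelial difference from the saline mean after size factors was -0.63 in TIS sEV replicate 2. It was -0.99 in TIS sEV replicate 3 and -0.64 in saline replicate 1. The T cell median was -0.14 in both TIS sEV replicate 2 and saline replicate 1. Among other lists after size factors, CD8 T cell (2.61), dendritic cell (1.69) and endothelial (6.04) sums were lowest in TIS sEV replicate 2. Macrophage and monocyte (220), B and plasma cell (332) and adipocyte (87.7) sums were highest there. Cd68 (36.5 TPM) and Mrc1 (30.2 TPM) made up most of the macrophage and monocyte sum in that library. By gene, the median difference of this list from the saline mean after size factors was 0.21 there and 0.55 in saline replicate 2. The macrophage and monocyte list as a whole was thus not highest in TIS sEV replicate 2.

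Macrophage and monocyte markers (6 genes) summed to 82.1 to 166 TPM with TIS sEV, 134 TPM with Cont sEV and 92.5 to 243 TPM with saline. Neutrophil markers (5 genes) summed to 949 to 1724 TPM with TIS sEV, 480 TPM with Cont sEV and 1155 to 5959 TPM with saline, highest in saline replicate 1. Dendritic cell markers (5 genes) summed to 0.631 to 4.49 TPM with TIS sEV, 4.40 TPM with Cont sEV and 1.97 to 8.05 TPM with saline. The saline maximum, in replicate 3, came from Itgax at 5.52 TPM and Zbtb46 at 2.08 TPM, while Flt3 and Xcr1 were lowest among saline tumours there. Skeletal muscle markers (3 genes) summed to 34.4 TPM in saline replicate 3, against 0.516 to 0.833 TPM in the other saline tumours. B and plasma cell markers (5 genes) summed to 26.4 to 124 TPM with TIS sEV, 30.8 TPM with Cont sEV and 1.71 to 7.83 TPM with saline, highest in TIS sEV replicate 2, and the B cell gene Ms4a1 did not exceed 0.0167 TPM in any library. NK cell markers (3 genes) summed to 1.96 to 20.7 TPM with TIS sEV, 5.66 TPM with Cont sEV and 5.53 to 12.2 TPM with saline. The granzyme gene Gzma made up most of this sum in every library, with 19.9 TPM in TIS sEV replicate 1. The other NK cell markers were low, with Ncr1 at most 0.780 TPM (saline replicate 2) and Klrb1c at most 0.544 TPM (Cont sEV). Fibroblast markers (5 genes) summed to 14.8 to 49.2 TPM with TIS sEV, 26.7 TPM with Cont sEV and 28.9 to 84.9 TPM with saline. Adipocyte markers (3 genes) summed to 8.95 to 38.5 TPM with TIS sEV, 20.01 TPM with Cont sEV and 13.5 to 21.7 TPM with saline. Of these, Adipoq, an adipocyte hormone, was at 0, 2.52 and 0.0482 TPM with TIS sEV, 0.447 TPM with Cont sEV and 0.0173 to 0.0960 TPM with saline. Plin1, a lipid droplet protein, was at 0.329 TPM in TIS sEV replicate 2 and at most 0.0160 TPM in any other library. The part of these cell types and of the ribosomal RNA share in the class I values was not tested.

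Reads shared between related genes limit the levels of single heavy chains. Of all 31-base words in annotated transcripts (GENCODE M21), 22.8% of those of H2-K1, 26.9% of H2-D1 and 25.8% of H2-T23 also occur in another gene's transcripts, against 4.62% for H2-M3 and 0 for B2m. H2-K1 shares most with H2-D1, 11.1% of its words. The same share was 26.9% for Tapbp (mostly with Gm19412), 14.3% for Tap2 (mostly with Gm15821), 11% for Erap1 (with Cast), 4.09% for Tap1 (mostly with Psmb9) and 0.579% for Nlrc5, and no source used here says whether strand was used in the quantification. The reference genome is C57BL/6J, whose MHC alleles differ from those of BALB/c and 4T1, and the effect of this on the values of heavy chains was not tested. The levels of the heavy chains and of Tapbp are for these reasons uncertain.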

How the data were processed

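RNA of 7 whole tumours was measured. The authors deposited 1 table of TPM values with 55487 gene rows, scaled to 1000000 per library. The submitters' processing notes list Salmon 1.4.0, Trim Galore 0.6.6, DESeq2 1.28.0 and FastQC 0.11.9, and the build GRCm38.p6. The transcript annotation is not given in the sources used here. Depth is unknown. Identifiers were matched without version to GENCODE M21, and 55141 had a symbol.

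The test was limma 3.58.1 (R 4.3.3) with intensity trend on log2(TPM + 1), without further scaling, for genes at 1 TPM or more in at least 3 of 7 libraries (12058). One fit held a mean for each of 3 groups, with 4 residual degrees of freedom. Prior degrees of freedom came out infinite, which gives a gene's own spread no weight. Fold changes on this scale understate those of low genes. The script was tested on simulated data with independent noise and no library that stood apart. That test therefore does not cover the effect of a library such as TIS sEV replicate 2. Ratios, ranks, sums and promoter motifs were computed in Python 3.11.15 (pandas 2.3.3, NumPy 2.4.6).

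The 10 genes and all lists were chosen with earlier results of these data known. All 10 genes are named; from each pathway list every gene passing the test is named and the 2 tested genes furthest from the median gene between TIS sEV and saline. No paired term was used, as the labels do not tie replicate numbers together. Alternatives were another pseudocount, filter, scaling or variance model, a replicate block and leaving out each library. The list medians without TIS sEV replicate 2 and the order of libraries and marker sums after size factors were added after seeing the data.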

Additional observations from a re-analysis of the deposited data

How the results depend on the processing

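None of the 10 class I genes was called in any comparison under any alternative tried. The lowest limma adjusted p among them was 0.0717, for H2-K1 between TIS sEV and saline without TIS sEV replicate 1. The median over the 10 genes relative to the median gene stayed below 0 between TIS sEV and saline, at -0.87 to -0.22, except without TIS sEV replicate 2, where it was 0.35, or 0.39 with size factors.

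Counts of called genes over the whole table moved more. Between TIS sEV and saline 62 genes were called; 0 were with no filter (1230 at an unadjusted p under 0.05 by limma), size factors (1761), quantile normalization (1755), rescaling to the protein-coding total (1766), without TIS sEV replicate 2 with size factors (1479) and a replicate block with size factors (1252). A 5 TPM filter gave 30, no intensity trend 39 and the replicate block 14, and leaving out single libraries 7 to 353. Between TIS sEV and Cont sEV, where 27 were called, the counts were 246 with no filter, 9 with a 5 TPM filter, 1 with size factors or quantile normalization, 2 after rescaling, 12 with no trend, 5 with the block, 0 with the block and size factors (330 unadjusted), 1 without TIS sEV replicate 2 with size factors, and 10 to 103 without single libraries. Between Cont sEV and saline, where 25 were called, they were 233, 13, 1 with size factors, 2 with quantile normalization or rescaling, 16, 9, 0 with the block and size factors (964 unadjusted), 1 and, without single libraries, 11 to 197, in the same order. TIS sEV replicate 1 (353) and saline replicate 3 (7) gave the ends of the range between TIS sEV and saline. The cause of these shifts was not tested. No value exists for comparisons with Cont sEV without its only library.

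Fitted log2 differences of uncalled class I genes changed sign as follows. Between TIS sEV and saline, leaving out single libraries gave -1.71 to 0.22 for H2-K1, -1.58 to 0.14 for H2-D1, -1.71 to 0.23 for H2-T23, -1.13 to 0.47 for H2-M3, -1.79 to 0.17 for Tap2 and -1.55 to 0.30 for Tapbp, with every value above 0 from the fit without TIS sEV replicate 2. With size factors as well, that fit gave 0.45 for H2-K1, 0.37 for H2-D1, 0.46 for H2-T23, 0.69 for H2-M3, 0.22 for Tap1, 0.40 for Tap2, 0.53 for Tapbp, 0.17 for Nlrc5 and 0.054 for Erap1. H2-M3 was 0.22 with size factors, with or without the block, and 0.20 with quantile normalization. Between TIS sEV and Cont sEV, leaving out single libraries gave -1.22 to 0.23 for B2m, -1.62 to 0.23 for Tapbp, -0.76 to 0.68 for Nlrc5 and -1.06 to 0.41 for Erap1; without TIS sEV replicate 2 and with size factors these were 0.052, 0.055, 0.51 and 0.25. Nlrc5 was 0.11 with size factors, 0.21 with quantile normalization and 0.34 after rescaling. Between Cont sEV and saline, Tapbp was -0.049 after rescaling and -0.14 to 0.37 without single libraries, and H2-D1 was -0.048 to 0.43 without single libraries.

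Same-numbered TIS sEV and saline libraries had correlations of deviations across genes of -0.38, -0.0085 and 0.080. With 3 libraries per group, whose deviations from the group mean cancel out, these values cannot show whether the numbers pair the samples. With the replicate block the TIS sEV and saline counts were those above, Nlrc5 between TIS sEV and Cont sEV was 0.24, or 0.40 with size factors, where Erap1 was 0.011, and between Cont sEV and saline H2-K1 was -0.22, H2-D1 -0.13, H2-T23 -0.15 and Tapbp -0.37.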
